A study of Mus musculus with 19 samples.

Results

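The 10 genes described here encode enzymes of methionine and one-carbon metabolism: Mat1a, Mat2a, Gnmt, Bhmt, Ahcy, Cbs, Cth, Shmt1, Shmt2 and Mthfd1. They were chosen by name, as core enzymes of the pathway, with no measured value in the rule but with earlier results of these data known. All 10 had a row among the 13549 genes of the embryonic liver table and among the 17606 genes of the tumour files, and all 10 passed the filter on low values in both experiments.

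The samples were whole livers of mouse embryos at embryonic day 18.5 and mouse tumours grown as grafts, each measured by RNA sequencing. Of the 9 livers, 5 were labelled control and 4 carried the genotype label DNAJ1B-PKA_Overexpression and are called fusion livers here. In the transgenic line, the DNAJB1-PRKACA fusion of fibrolamellar carcinoma, joined to GFP, sits in Rosa26 behind a loxP-flanked stop. It is released by Alb-Cre, whose albumin promoter is active in the liver from mid-gestation. Which of these alleles the control embryos carried, and the strain of the embryos, is not given in the sources used here. The 10 tumours came from 1 mouse cell line, FL8, whose derivation is not given in the sources used here. The cells were cast in gelatin and implanted in the flanks of NSG mice, a strain without mature lymphocytes, and at a mean tumour size of 75 mm3 the mice were assigned to the methylcellulose carrier alone (vehicle, 5 tumours) or to palbociclib, an inhibitor of the cell cycle kinases CDK4 and CDK6 (5 tumours). The gavage dose was 75 mg/kg on 3 days, followed by 4 days off.

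Methionine adenosyltransferases, encoded in liver by Mat1a and in growing and extrahepatic tissues mainly by Mat2a, make S-adenosylmethionine, the methyl donor of the cell. Methyltransferases such as Gnmt use it up and leave S-adenosylhomocysteine, which Ahcy splits to homocysteine. Homocysteine is either methylated again to methionine, by Bhmt with betaine or by the folate-dependent methionine synthase, or it is passed through Cbs and Cth to cysteine. Shmt1, Shmt2 and Mthfd1 load and interconvert the folate-bound carbon units, which also feed the synthesis of purines and thymidylate. The adult liver is the main organ of methionine breakdown, and the step from Mat2a to Mat1a is a known mark of hepatocyte maturation.

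The promoters of 4 of the genes are shown because 3 of them, Gnmt, Cbs and Mthfd1, belong to genes that were higher in the fusion livers, and Bhmt is the member with the lowest fold change. RefSeq (GRCm38.p6, mm10) gave a promoter entry for 8 of the 10 genes, all but Mat1a and Cth. Each line holds the 250 bases before the RefSeq start, 5′ to 3′ on the strand of the gene, and capitals mark CCAAT or GGGCGG on either strand (ATTGG and CCGCCC are their reverse complements).
Gnmt, chr17:46729166-46729415, minus strand: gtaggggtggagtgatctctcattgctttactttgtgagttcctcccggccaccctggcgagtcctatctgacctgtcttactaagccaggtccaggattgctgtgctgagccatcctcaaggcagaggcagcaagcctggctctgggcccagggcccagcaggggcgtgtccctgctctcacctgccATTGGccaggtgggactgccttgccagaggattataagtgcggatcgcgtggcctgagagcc
Cbs, chr17:31637206-31637455, minus strand: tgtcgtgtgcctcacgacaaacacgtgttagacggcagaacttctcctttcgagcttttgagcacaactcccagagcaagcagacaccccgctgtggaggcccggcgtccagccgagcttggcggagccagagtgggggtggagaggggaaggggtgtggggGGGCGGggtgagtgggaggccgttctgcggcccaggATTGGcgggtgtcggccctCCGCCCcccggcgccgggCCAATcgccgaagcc
Mthfd1, chr12:76254982-76255231, plus strand: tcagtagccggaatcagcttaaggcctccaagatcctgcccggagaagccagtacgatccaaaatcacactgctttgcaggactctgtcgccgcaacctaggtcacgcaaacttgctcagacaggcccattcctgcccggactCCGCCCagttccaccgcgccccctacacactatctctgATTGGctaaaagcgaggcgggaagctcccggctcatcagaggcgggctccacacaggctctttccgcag
Bhmt, chr13:93637759-93638008, minus strand: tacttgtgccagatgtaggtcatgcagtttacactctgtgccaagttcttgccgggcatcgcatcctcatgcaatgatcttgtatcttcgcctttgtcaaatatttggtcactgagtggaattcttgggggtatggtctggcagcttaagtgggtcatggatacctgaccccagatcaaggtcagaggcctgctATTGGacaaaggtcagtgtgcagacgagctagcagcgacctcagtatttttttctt

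Matches to 4 short motifs were counted on both strands of these windows, as a description of letters and not of bound sites. CCAAT, the core of the element that NF-Y binds, was in 7 of the 8 member promoters, all but that of Shmt2, and in 33.8% of the 32851 mouse promoters of the same length. GGGCGG, a core of the GC box of Sp1, was in 5 of the 8 (Mat2a, Ahcy, Cbs, Shmt1 and Mthfd1) and in 32.7% of all promoters. The palindrome TGACGTCA, the full cAMP response element of CREB, was in 0 of the 8 and in 1.55% of all promoters. Its shorter part TGACG, which lies inside the palindrome, was in 1 of the 8, that of Shmt1, and in 17.8% of all. Of the printed windows, Gnmt and Bhmt have CCAAT in its reverse form shortly before the start and no GGGCGG, and Cbs has both motifs 2 times. The base composition differed too: G and C made up 68% of the Cbs window, 60.4% of that of Gnmt, 59.2% of that of Mthfd1 and 48% of that of Bhmt, against a median of 52.4% over all promoters.

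The embryo libraries held between 7.66 and 45.6 M counts (M stands for 1000000) and the tumour libraries between 2.96 and 43.1 M reads. Levels are given as CPM, counts scaled to a library total of 1000000. The lowest read number behind any member value was 328 in the embryos, for Cth, and 22 in the tumours, for Bhmt. Prkaca, which encodes the kinase part of the fusion, stood at 36.3 to 50.5 CPM in the controls and at 114, 72.4, 53.8 and 52.0 CPM in fusion 6 to 9 (log2 fold change 0.78 ± 0.22 SE, adjusted p = 0.0379), and reads of the inserted cDNA and of the gene itself cannot be told apart. The embryo libraries fell into a side with a higher share of counts on ribosomal protein genes (7.81% to 8.46%, controls 1 and 2 and fusion 8 and 9) and a side with a lower one (5.42% to 6.77%, controls 3 to 5 and fusion 6 and 7). The labels name no batch. The female transcript Xist was high in controls 1 and 2 and in fusion 6 to 8, so that on the lower side sex and genotype cannot be told apart. All 9 hepatocyte markers were present in every embryo library, with a summed level of 122649 to 186373 CPM in the controls and 90770 to 163312 CPM in the fusion livers. Of these, Trf and Apoa1 were lower in every fusion liver than in every control, and the others overlapped. The summed level of the 5 biliary markers did not overlap between the groups, at 46.7 to 77.6 CPM in the controls and 11.98 to 40.4 CPM in the fusion livers, although Sox9 and Spp1 among them did overlap, and the summed level of 8 erythroid markers overlapped (3167 to 4814 and 3551 to 4251 CPM). In bulk tissue, fewer cells of a type and less RNA per cell cannot be told apart.

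In the embryonic livers the enzymes split into a group that was higher with the fusion and a group that was not. Mat1a, Gnmt, Cbs, Cth and Mthfd1 rose 1.47-fold to 4.48-fold, and no member fell past the threshold. These 5 of 10 had an adjusted p under 0.05 (edgeR's quasi-likelihood test, Benjamini-Hochberg over 13316 genes), where 12.8% of all genes tested were called and 5.99% were called higher. The same 5 were those whose groups did not overlap, all of them higher in every fusion liver than in every control, which was the case for 16.5% of all genes in either direction and 8.37% in this one. The median log2 fold change was 0.33 over the 10 members and -0.01 over all genes. The 5 calls held under all 17 alternative analyses tried.

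**Figure D1:**
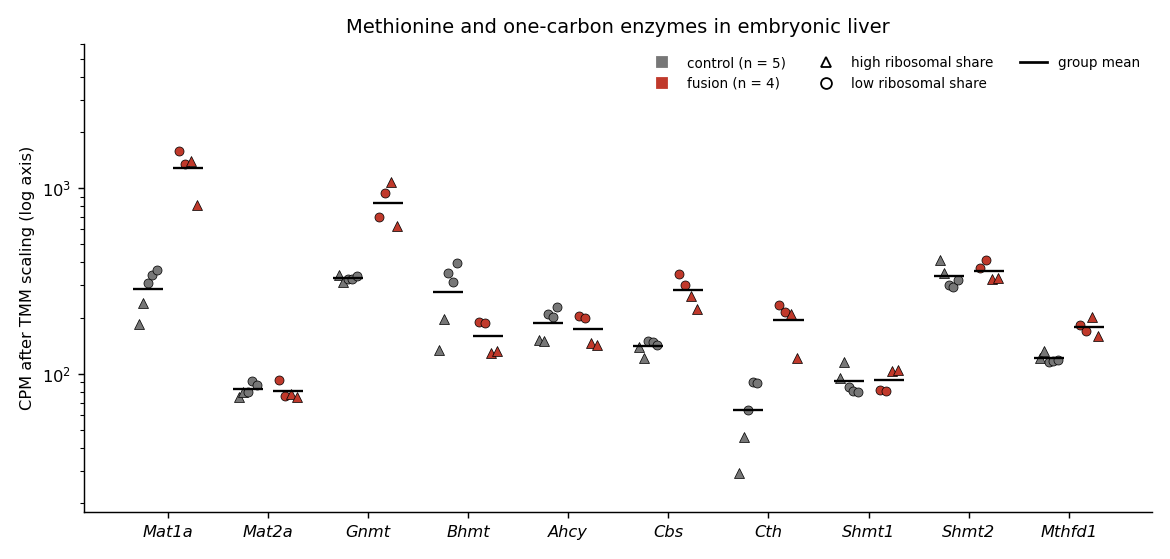
Each point is 1 embryonic liver, in CPM after TMM scaling on a log axis, for the 5 control (grey) and 4 fusion (red) livers. Bars mark group means, and the marker shape gives the ribosomal share of the library. The groups of Mat1a, Gnmt, Cbs, Cth and Mthfd1 lie apart, and those of the other 5 enzymes overlap.

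The largest rise was at the first step. Mat1a, the liver form of methionine adenosyltransferase, stood at 185, 241, 307, 339 and 363 CPM in controls 1 to 5 and at 1585, 1353, 1401 and 812 CPM in fusion 6 to 9. Even the lowest fusion liver was more than every control, and the means were 287 ± 73.4 CPM (SD, n = 5) and 1288 ± 333 CPM (SD, n = 4). The log2 fold change was 2.16 ± 0.24 (SE), a 4.48-fold rise (adjusted p = 0.000395), and 51 of the 13316 genes tested rose more. Mat1a lies on chromosome 14 (mm10, 41105035 to 41124412, plus strand) and overlaps no other annotated gene.

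Mat2a, which encodes the form of the same enzyme found in most other tissues, showed no such difference. Its levels were 75.1 to 91.0 CPM in the controls and 74.8 to 92.6 CPM in the fusion livers, with the highest value in fusion 6. The groups overlapped fully, and the log2 fold change was -0.04 ± 0.11 (SE, adjusted p = 0.843). Per kilobase of exon, the ratio of Mat1a to Mat2a was therefore 3.18 to 5.39 in the controls and 14.0 to 23.4 in the fusion livers, with fusion 9 at 14.0 and the other fusion livers at 22.2, 23.0 and 23.4. The ratio carries the change of Mat1a and is given without a test.

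Of the enzymes around S-adenosylhomocysteine, Gnmt alone was higher past the threshold. Gnmt encodes glycine N-methyltransferase, which removes excess S-adenosylmethionine by methylating glycine to sarcosine. It stood at 342, 311, 325, 323 and 337 CPM in the controls, the narrowest spread of the 10 genes there (a coefficient of variation of 3.67%), and at 702, 944, 1082 and 624 CPM in fusion 6 to 9. The means of 328 ± 12.03 CPM (SD, n = 5) and 838 ± 212 CPM (SD, n = 4) differed 2.56-fold (log2 fold change 1.35 ± 0.17 SE, adjusted p = 0.000743). The fusion livers thus varied far more among themselves than the controls, and the order among them differed from that of Mat1a: fusion 8 was highest for Gnmt and fusion 6 for Mat1a. Gnmt lies on chromosome 17 (46725664 to 46729168, minus strand) and overlaps Gm26904, a noncoding gene on the other strand. It is not stated whether counting used strand.

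Ahcy, the hydrolase of S-adenosylhomocysteine, had 152, 149.6, 211, 203 and 229 CPM in the controls and 204, 199, 147 and 144 CPM in the fusion livers. The values followed the library side rather than the genotype, since controls 1 and 2 and fusion 8 and 9 were the low ones. The log2 fold change was -0.12 ± 0.18 (SE, adjusted p = 0.682).

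Bhmt, which returns homocysteine to methionine with betaine as the methyl donor, had the most negative fold change of the members. It stood at 134, 198, 348, 311 and 395 CPM in the controls and at 189, 189, 129.8 and 133 CPM in the fusion livers, so that controls 1 and 2 lay within the fusion range or next to it and controls 3 to 5 far above. The means were 277 ± 108 CPM (SD, n = 5) and 160 ± 33.3 CPM (SD, n = 4). The log2 fold change of -0.79 ± 0.29 (SE) missed the threshold (adjusted p = 0.0943), and it passed in 5 of the 17 alternatives. Without control 1 it was -0.96 (adjusted p = 0.0285, 9.37% of all genes called), and with the library side as a covariate -0.64 (adjusted p = 0.00485, 32.6% called). It also passed with DESeq2 (18.4% called), with limma-voom and quality weights (17.7% called) and on the side with the lower ribosomal share. The fold change was negative in all 17, from -0.96 to -0.32. Bhmt overlaps Gm15622, an antisense gene on chromosome 13.

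Both enzymes that carry homocysteine to cysteine were higher in the fusion livers. Cbs, cystathionine beta-synthase, which commits homocysteine to this route, stood at 140.3, 122, 151, 148 and 143 CPM in the controls and at 347, 302, 261 and 224 CPM in the fusion livers. All 4 fusion values were above all 5 control values, with means of 141 ± 11.4 CPM (SD, n = 5) and 284 ± 53.0 CPM (SD, n = 4), a 2.02-fold difference (log2 fold change 1.01 ± 0.14 SE, adjusted p = 0.00167). Cbs lies on chromosome 17 (31608894 to 31637238, minus strand) with no other annotated gene over it.

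Cth, cystathionine gamma-lyase, which releases cysteine in the next step, had 29.0, 45.7, 63.6, 90.2 and 88.8 CPM in the controls and 235, 215, 210.2 and 122 CPM in the fusion livers. The control values spread more than those of any other member (a coefficient of variation of 42.1%), with controls 1 and 2 lowest, yet the highest control stayed below the lowest fusion liver. The rise was 3.07-fold (log2 fold change 1.62 ± 0.31 SE, adjusted p = 0.00739). Cth overlaps Gm43314, another annotated gene on the same strand, so strand alone would not separate their reads. Mat1a, Bhmt, Ahcy and Cth all had lower levels in controls 1 and 2 than in controls 3 to 5, as had the summed hepatocyte markers, at 132316 and 122649 CPM against 178079 to 186373 CPM. Among the fusion livers the marker sum was 163312, 139943, 90770 and 124107 CPM in fusion 6 to 9, and Gnmt and Mthfd1 were highest in fusion 8, whose marker sum was the lowest of the 9 livers. The markers in this sum did not all move alike. Alb was lowest in fusion 8 as well (35228 CPM). Hnf4a stood there at 110 CPM, above 77.2 and 80.3 CPM in controls 1 and 2. Whether hepatocyte content had a part in the enzyme levels was not tested.

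Of the folate enzymes, Mthfd1 rose and the serine hydroxymethyltransferases did not pass the test. Mthfd1, the cytosolic enzyme with 3 activities that interconverts formyl, methenyl and methylene folate, stood at 122, 133, 116, 118 and 119 CPM in the controls and at 184, 171, 201 and 159 CPM in the fusion livers. This was the smallest of the 5 rises, 1.47-fold, with a small spread in both groups (122 ± 6.76 CPM, n = 5, and 179 ± 18.2 CPM, n = 4, SD). Its log2 fold change was 0.56 ± 0.11 (SE, adjusted p = 0.00960). Mthfd1, on chromosome 12, overlaps 3 annotated noncoding genes or pseudogenes on the other strand.

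Shmt1, the cytosolic enzyme that moves a carbon from serine to folate, ranged from 80.0 to 116 CPM in the controls and from 81.2 to 104 CPM in the fusion livers (log2 fold change 0.02 ± 0.15 SE, adjusted p = 0.944). Shmt2, its mitochondrial counterpart, had 409, 351, 300.2, 292 and 321 CPM in the controls and 370.2, 409, 323 and 326 CPM in the fusion livers (log2 fold change 0.09 ± 0.14 SE, adjusted p = 0.701). The groups of both genes overlapped. Both share sequence with a protein-coding neighbour on the other strand, Shmt1 with Smcr8 and Shmt2 with Ndufa4l2, so reads of the neighbours could be counted with them if strand was not used.

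**Figure D2:**
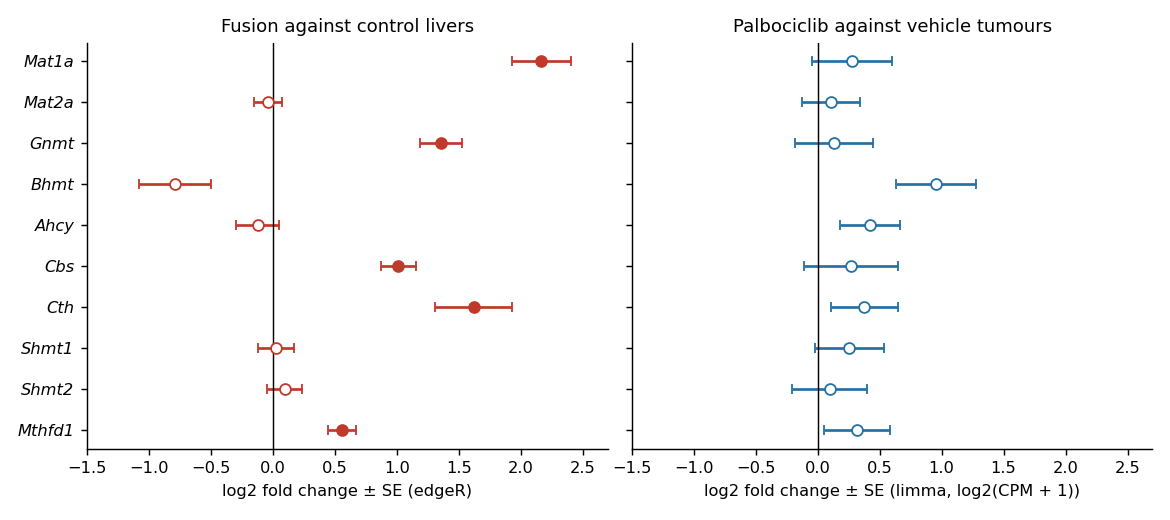
Points are log2 fold changes with their standard errors, for fusion against control livers (left) and palbociclib against vehicle tumours (right), and filled points have an adjusted p under 0.05. In the livers 5 of 10 are filled, all to the right of 0. In the tumours 0 of 10 are filled.

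The comparison was repeated within each side of the library split, 2 controls against 2 fusion livers on the side with the higher ribosomal share and 3 against 2 on the other. All 5 members that rose were called on both sides, where 20.0% and 21.8% of all genes were called. For Mat1a the log2 fold change was 2.39 (adjusted p = 0.000529) on the higher side and 2.13 (adjusted p = 1.06e-05) on the lower. Gnmt gave 1.39 and 1.33, Cbs 0.90 and 1.14, Cth 2.18 and 1.48, and Mthfd1 0.51 and 0.59. The difference between the sides was then tested as an interaction of genotype and side, a fit added after the data were seen. It passed the threshold for 0 of the 10 members, with the smallest adjusted p at 0.148 for Shmt2, and for 0.188% of all genes. Before adjustment, the p-value of the interaction was under 0.05 for Shmt2 and Bhmt. The share of all genes under this unadjusted threshold was not counted, so these members have no background beside them.

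Of the members that missed the threshold over all 9 livers, Bhmt and Shmt2 passed it on the lower side, where sex and genotype cannot be told apart. Bhmt gave a log2 fold change of -0.32 (adjusted p = 0.224) on the higher side and -0.89 (adjusted p = 0.00156) on the lower. Shmt2 gave -0.22 (adjusted p = 0.297) and 0.36 (adjusted p = 0.04997), with a difference of 0.58 ± 0.18 (SE). Mat2a, Ahcy and Shmt1 stayed between -0.09 and -0.01 on both sides and passed on neither.

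**Figure D3:**
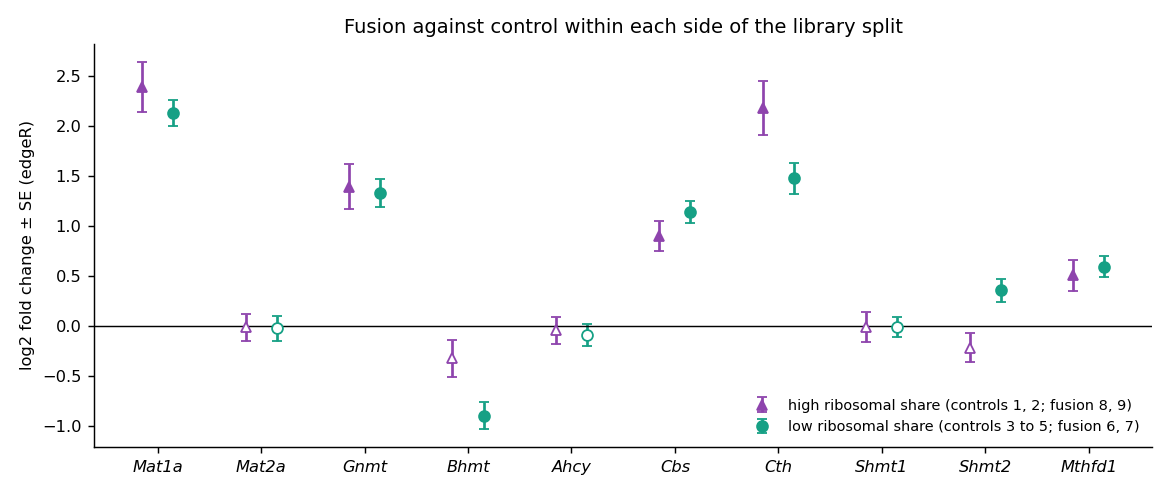
Log2 fold changes with standard errors, fusion against control, computed within the libraries of higher (triangles) and lower (circles) ribosomal share, and filled symbols have an adjusted p under 0.05. Mat1a, Gnmt, Cbs, Cth and Mthfd1 are filled on both sides, Bhmt and Shmt2 on the lower side.

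The 4 fusion livers did not differ from the controls to the same degree. Fusion 9 was the lowest of them for all 5 members that rose, and also for Mat2a and Ahcy, which did not pass the threshold. How many of all genes were lowest in fusion 9 was not counted. Against the mean of the controls, Mat1a was at 2.83-fold in fusion 9 and at 4.71-fold to 5.52-fold in the others, and Cth at 1.92-fold against 3.31-fold to 3.70-fold. For Cbs the values were 1.59-fold in fusion 9 and 1.86-fold to 2.47-fold in the others, and for Mthfd1 1.31-fold and 1.41-fold to 1.66-fold. Gnmt was closer, at 1.90-fold in fusion 9 and 2.14-fold in fusion 6. Fusion 9 was male by its low Xist level, the other fusion livers being female, and it had the lowest Prkaca level of them (52.0 CPM, next to 53.8 CPM in fusion 8) and the highest biliary marker sum (40.4 CPM, against 11.98, 16.3 and 15.7 CPM in fusion 6 to 8), and the part of each in these values was not tested.

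Per kilobase of exon, Gnmt had the highest level of the 10 in the control livers, 272 ± 9.97 CPM per kb, and it did not overlap the next, Shmt2, at 108 ± 15.2 CPM per kb. Mat1a followed with 82.8, Ahcy with 67.3, Bhmt with 48.2, Mthfd1 with 27.4, Shmt1 with 23.5, Cth with 22.7, Cbs with 18.8 and Mat2a with 18.4, and each of these overlapped its neighbour in the order. In the fusion livers Gnmt stood at 695 ± 176 CPM per kb and Mat1a, now second, at 371 ± 95.9 CPM per kb, ahead of Shmt2 at 115 ± 13.1 CPM per kb, with no overlap between these neighbours. Cth moved up to the fourth place with 70.0 CPM per kb, and Bhmt moved down to the eighth with 27.8 CPM per kb. The per-kilobase ratio of Gnmt, which disposes of methyl groups, to Bhmt, which restores methionine, was 4.07 to 12.1 in the controls and 17.7 to 39.8 in the fusion livers. Cbs and Bhmt are the enzymes at the branch point of homocysteine. Their per-kilobase ratio, Cbs to Bhmt, was 0.279 to 0.803 in the controls and 1.23 to 1.55 in the fusion livers. Per kilobase, Cbs was thus below Bhmt in every control and above it in every fusion liver. The side of 1 on which a ratio falls depends on the exon lengths used. In CPM without this division, Cbs was above Bhmt in control 1 too (140.3 and 134 CPM), and below it in the other controls.

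The genes around the 10 enzymes were read from 7 lists with 66 genes, of which 63 could be tested in the livers and 15 passed the threshold, 10 higher and 5 lower, where 12.8% of all genes were called, 5.99% higher and 6.81% lower. The list of serine and glycine enzymes had the most, with 6 of 10 higher and 0 lower. Sds, serine dehydratase, which breaks serine down for glucose synthesis, went from 5.92 to 10.0 CPM in the controls to 120 to 269 CPM in the fusion livers (log2 fold change 4.53 ± 0.26 SE, adjusted p = 5.59e-06). Agxt, which turns glyoxylate into glycine, rose by 2.05 ± 0.20 (SE) on the log2 scale, from 116 to 179 CPM up to 445 to 852 CPM (adjusted p = 0.000149). The glycine cleavage genes Dld (1.35 ± 0.16 SE, adjusted p = 0.000487) and Gldc (1.02 ± 0.21 SE, adjusted p = 0.0104) rose as well, and Dld also serves the pyruvate and ketoglutarate dehydrogenases. These 4 kept their call in all 17 alternatives. The remaining pair, Gcsh and Gatm, lost it in 9 and 8 of them, so that the list had 4 to 7 members called across the alternatives, which called 7.33% to 32.6% of all genes.

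Among 7 liver methyltransferases, which draw on the same methyl donor as Gnmt, 1 was higher and 2 were lower past the threshold. Of all genes tested, 5.99% were called higher and 6.81% lower. Nnmt, which methylates nicotinamide, stood at 0.297 to 0.976 CPM in the controls (5 to 17 counts) and at 26.7 to 83.8 CPM in the fusion livers (log2 fold change 6.60 ± 0.42 SE, adjusted p = 8.45e-06). Gamt, which makes creatine, was lower in every fusion liver, at 41.0 to 94.7 CPM against 136 to 164 CPM (log2 fold change -1.32 ± 0.22 SE, adjusted p = 0.00346). Pemt, which makes phosphatidylcholine, had a log2 fold change of -0.68 ± 0.20 (SE, adjusted p = 0.0422) but lost the call in 9 of the 17 alternatives, 8 of them fits that left out 1 library (adjusted p up to 0.0956). The 3 methyltransferases called thus did not move in 1 direction.

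In the list of other folate genes 3 of 15 passed, a share near the 12.8% of all genes called. Mthfd1l, a mitochondrial relative of Mthfd1, was higher (log2 fold change 0.63 ± 0.16 SE, adjusted p = 0.0271), a call lost in 6 of the 17 alternatives, among them the side with the higher ribosomal share (0.33, adjusted p = 0.157). Aldh1l2, which oxidises formyl folate in mitochondria, was lower (-1.73 ± 0.26 SE, adjusted p = 0.00216). Its levels were low in both groups, at 2.87 to 4.80 CPM in the controls and 0.690 to 1.60 CPM in the fusion livers. The folate carrier Slc46a1 was lower as well (-0.85 ± 0.18 SE, adjusted p = 0.0123). Of the cysteine and glutathione genes, 3 of 10 tested passed. Got1, a transaminase, rose by 3.81 ± 0.18 (SE) on the log2 scale, from 71.0 to 85.7 CPM up to 779 to 1418 CPM (adjusted p = 2.27e-06). Suox, sulfite oxidase, rose by 1.84 ± 0.23 (SE, adjusted p = 0.000743), and Csad, an enzyme of taurine synthesis, was lower (-1.08 ± 0.20 SE, adjusted p = 0.00682), although not past the threshold on the side with the higher ribosomal share (-0.57, adjusted p = 0.0627).

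The remaining lists showed no call. They held 7 other genes of the methionine cycle, among them methionine synthase (Mtr) and the regulatory subunit Mat2b, 5 genes of choline, betaine and sarcosine oxidation, and 9 tested genes of methionine salvage and polyamine synthesis. At an unadjusted p under 0.05 the numbers were 2, 0 and 1, where 29.3% of all genes were under it. Between 0 and 2 genes of each list were called across the alternatives, which called 7.33% to 32.6% of all genes. The lists with calls, like the members, changed in livers whose biliary marker sum was also lower, and its part in them was not tested.

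**Figure D4:**
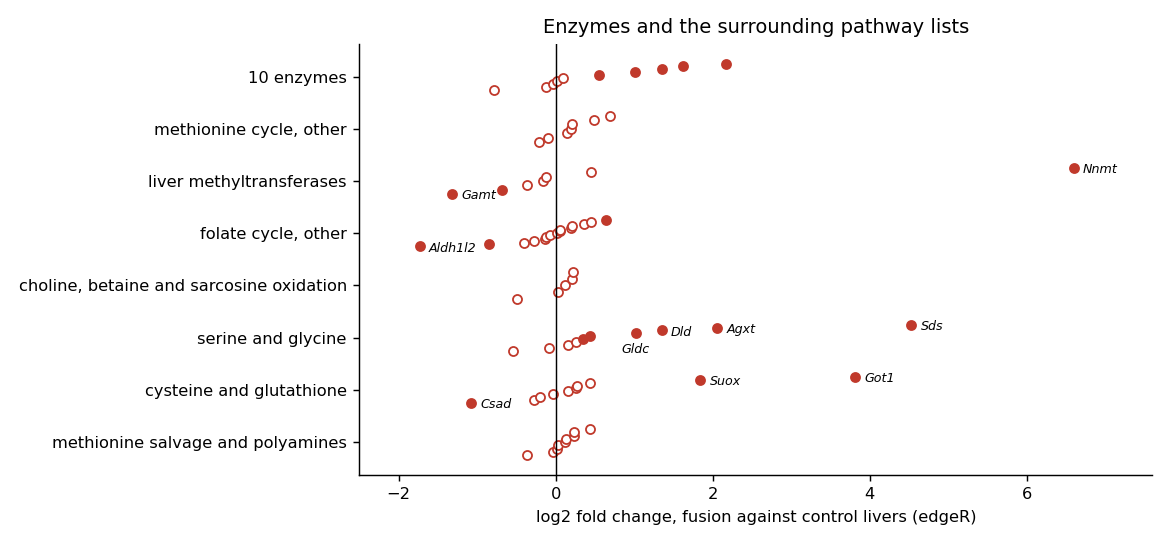
Each point is 1 gene, placed by its log2 fold change in fusion against control livers and by its list, and filled points have an adjusted p under 0.05. Names are given for called genes of the 7 surrounding lists with an absolute log2 fold change over 1. All 6 called serine and glycine genes lie to the right of 0.

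In the FL8 tumours the 10 enzymes were not found to differ with palbociclib. By limma on log2(CPM + 1), 0 of the 10 had an adjusted p under 0.05, where 0.00% of 12829 genes were called, and 0 of the 10 had groups that did not overlap, against 0.935% of all genes. At an unadjusted p under 0.05 there was 1 member, Bhmt, and 4.57% of all genes. DESeq2 on the recovered reads called 8 genes (0.0454%), edgeR 0 and limma with array quality weights 58 (0.452%), with 0 members in each case. All 10 members had a fold change above 0, but so had 68.8% of all genes, and the median over all genes was 0.14 against 0.27 over the members. With TMM factors the median over all genes was 0.01, and Mat2a (-0.04), Gnmt (-0.02) and Shmt2 (-0.05) changed sign.

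These values lean on 1 tumour. In vehicle 1 mitochondrial genes took 46.6% of the reads (1.24% to 6.47% in the remaining tumours), and in CPM it was the lowest of the 10 tumours for all 10 members. CPM is scaled to all reads, mitochondrial ones included, so this share lowers the CPM of every other gene there. How many of all genes were lowest in vehicle 1 was not counted. With mitochondrial genes left out before scaling, the median log2 fold change over all genes was 0.01, and 0 genes were called. The hepatocyte marker sum of vehicle 1 was 39634 CPM, against 97120 to 113856 CPM in the other vehicle tumours and 82687 to 127991 CPM with palbociclib. Its 6 myeloid markers summed to 1285 CPM, against 70.7 to 316 CPM elsewhere. Without it, the log2 fold change of Cbs went from 0.27 to -0.18, that of Shmt2 from 0.10 to -0.21 and that of Gnmt from 0.13 to -0.09, none past the threshold. Vehicle 5 was the shallowest tumour, with 2.96 M reads. Erythroid markers ranged from 1028 to 49101 CPM in the vehicle tumours and from 1062 to 5501 CPM with palbociclib, and their part in the member values was not tested.

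**Figure D5:**
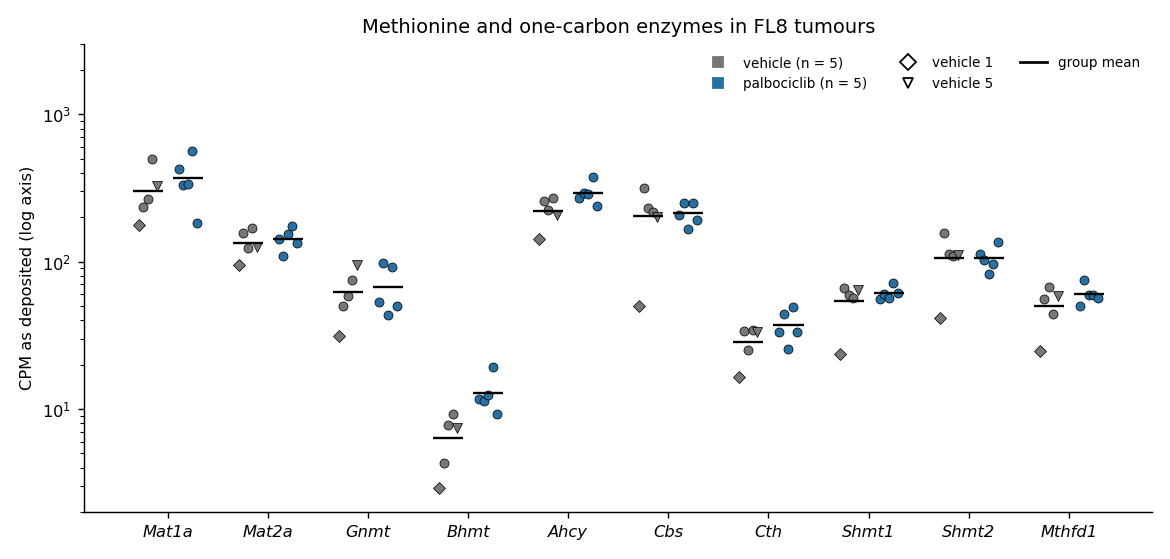
Each point is 1 tumour, in deposited CPM on a log axis, for 5 vehicle (grey) and 5 palbociclib (blue) tumours. Bars mark group means, the diamond is vehicle 1 and the inverted triangle vehicle 5. The groups of all 10 enzymes overlap, and vehicle 1 is the lowest tumour for each.

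Bhmt had the largest fold change of the members in the tumours, at a low level. It stood at 2.92, 4.32, 7.84, 9.25 and 7.44 CPM in vehicle 1 to 5 and at 11.6, 11.2, 12.5, 19.2 and 9.21 CPM in palbociclib 1 to 5. The groups overlapped only by vehicle 4 and palbociclib 5, and 4 of the 5 palbociclib tumours were above every vehicle tumour. The means were 6.35 ± 2.63 and 12.8 ± 3.81 CPM (SD, n = 5 each), with a log2 fold change of 0.95 ± 0.32 (SE, 95% interval 0.27 to 1.64, adjusted p = 0.953). It was above 0 in all 19 alternatives that gave a value, from 0.75 without vehicle 1 to 1.09, and passed the threshold in 0 of them.

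The other 9 members had log2 fold changes of 0.10 to 0.42, with adjusted p-values of 0.953 or more. Mat1a varied most in absolute terms, with 178, 235, 268, 499.6 and 329 CPM in the vehicle tumours and 423, 329, 337, 561 and 183 CPM with palbociclib (log2 fold change 0.28 ± 0.32 SE). Ahcy had 143, 256, 225, 271 and 207 CPM in the vehicle tumours and 268, 291, 286, 376 and 239 CPM with palbociclib, a difference of 0.42 with a 95% interval of -0.09 to 0.93. For Cbs, the value of 50.3 CPM in vehicle 1 stood apart from 201 to 316 CPM in the other vehicle tumours and 166 to 251 CPM with palbociclib. The 95% intervals of all 9 included 0, and that of Cbs was the widest, from -0.53 to 1.07. A missed threshold does not show that the groups were alike. Of the 64 surrounding pathway genes that could be tested, 0 passed the threshold (0.00% of all genes) and 7 had an unadjusted p under 0.05 (4.57% of all genes).

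The order of the enzymes in the tumours differed from that in the livers, though the tables were normalized separately and from different library types and no test was made between them. In the vehicle tumours Mat1a (87.1 ± 35.5 CPM per kb) and Ahcy (78.6 ± 17.9 CPM per kb) led, Gnmt came next with 51.4 and Bhmt was last with 1.10 ± 0.457 CPM per kb, with no overlap with Cth above it at 10.3. With palbociclib Mat1a stood at 106, Ahcy at 104 and Bhmt at 2.22 CPM per kb, and the order of all 10 was the same. The ratio of Mat1a to Mat2a was 1.94 to 3.84 in the vehicle tumours and 1.76 to 4.17 with palbociclib, and the groups overlapped. Mat1a transcripts thus outnumbered those of Mat2a per kilobase in each of the 10 tumours, as in each of the 9 livers.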

How the data were processed

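The deposited embryo values are raw counts, 1 row for each gene symbol, of poly-A RNA, made with STAR 2.5.1b on mm10 per the submitters' processing notes. The deposited tumour values are CPM, per the file headers, from cutadapt 2.10, HISAT2 and featureCounts on mm10 per the same notes. Strand setting and annotation are not given in the sources used here. All tumour values (100%, within 0.01 of a whole number) could be turned back into whole reads. Symbols, positions and exon lengths came from GENCODE M21 (GRCm38), which named 17469 of 17606 tumour IDs and holds 13103 of 13549 embryo symbols.

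For the embryos, the quasi-likelihood test of edgeR 4.0.16 was run in R 4.3.3 with TMM factors and filterByExpr. Tumours were compared by limma 3.58.1 with a trend, on log2(CPM + 1) of the genes averaging 1 CPM or more, a scale on which low genes show too small a change. P-values were adjusted over all genes tested (Benjamini-Hochberg), and 0.05 was the threshold. Embryo levels are CPM after TMM scaling, marker sums CPM before it. Alternatives covered size factors, filters, pseudocount, DESeq2 1.42.0, quality weights, library side, Xist, mitochondrial reads, the replicate number and each library left out, and 1 that left out vehicle 1 and vehicle 5 together was added after the data were seen. Both fits were tested on simulated data.

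All 10 members are named, and of the pathway lists the called genes, at most the 4 with the smallest adjusted p plus, after their values were seen, Gcsh and Gatm. The members and lists were chosen with earlier results of these data known. Replicates are separate samples per the labels, which do not say that each is a separate animal, so the p-values may measure technical spread in part. No 2 libraries of a group agreed within counting noise (lowest chi-square per degree of freedom 13.0). A count of 3, the floor, is 0.0658 to 0.392 CPM in the embryos and 0.0695 to 1.01 CPM in the tumours and covers counting error only.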

Additional observations from a re-analysis of the deposited data

Results flagged for a closer look

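In fusion 6, Mat2a stood at 92.6 CPM, apart from the next fusion liver at 77.6 CPM, and in vehicle 1, Shmt1 stood at 23.5 CPM, apart from the next vehicle tumour at 56.6 CPM. Of 40 groups of member values screened for such single samples 2 had one, and chance gives about 5% of groups, or 2. Shmt2 moved in opposite directions on the sides of the embryo library split, with a log2 fold change of -0.22 in the libraries of higher ribosomal share and 0.36 in those of lower share. The difference, tested as an interaction, was 0.58 ± 0.18 (SE), with an adjusted p of 0.148 over all genes in edgeR, so it did not pass the correction. In the libraries of lower share sex and genotype cannot be told apart.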

How the results depend on the processing

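Mat1a, Gnmt, Cbs, Cth and Mthfd1 kept their direction and their call in all 17 embryo alternatives, and 5 to 7 members were called in each. Bhmt passed in 5: with DESeq2 (-0.78, adjusted p = 0.0417), quality weights (-0.96, 0.0131), the library side as a covariate (-0.64, 0.00485), within the lower side (-0.89, 0.00156) and without control 1 (-0.96, 0.0285). Shmt2 passed within the lower side alone (0.36, adjusted p = 0.04997). The count of all embryo genes called was 1704, and 4345 with the side as a covariate, 2589 and 2950 within the higher and lower side, and 969 to 1581 with 1 library left out (969 without control 3, 1107 without fusion 7, 987 without fusion 8). The causes of these changes were not tested. The fits within a side and those with 1 library left out also had fewer samples. In the tumours 0 members were called in all 20 alternatives, and the count of all genes was 0 except with DESeq2 (8) and array weights (58). Several tumour fold changes changed sign. Across the 20 alternatives the value was negative in 8 for Shmt2, 6 for Mat2a, 5 for Gnmt, 3 for Cbs and 1 each for Shmt1 and Mthfd1. For Mat1a, Ahcy and Cth it was positive in all 20. Cbs turned to -0.18 without vehicle 1 and to -0.26 without vehicle 1 and vehicle 5. Shmt2 turned to -0.25 in the latter, and Mthfd1 to -0.03 with array weights. Bhmt has no value under the filter of 10 CPM. The tumour replicate numbers are not stated to mark pairs. Correlations of same-numbered deviations were -0.32 to 0.00, and 0 of 5 pairs were closest to their own number. With 5 numbers, this check cannot exclude a pairing. The fit with the replicate block called 0 genes and 0 members. Depth limits the values of Bhmt in vehicle 5, with 22 reads, and of Nnmt in the controls, with 5 to 17 counts. Aldh1l2 was low in the fusion livers too, at 0.690 to 1.60 CPM.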
